A study of Mus musculus with 18 samples.

Results

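The 41 mouse genes described here encode the transporters and enzymes that bring glucose into the cell, break it down by glycolysis, store and release it as glycogen, and pass pyruvate on to lactate or to the mitochondrion. They were chosen as a list of gene symbols, with earlier results of these data known. Each was matched to 1 row of a count table of 55450 Ensembl gene IDs. By role, 4 genes belong to uptake and first phosphorylation, 7 to upper glycolysis, 3 to the making and breaking of fructose-2,6-bisphosphate, 8 to lower glycolysis, 4 to lactate and its transport, 5 to pyruvate dehydrogenase and its kinases, and 10 to glycogen.

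Polyadenylated RNA was sequenced from C2C12 cells, a mouse myoblast line that stops dividing and fuses into myotubes when serum is lowered. The 18 libraries form 6 groups of 3 replicates (A, B and C): a control line and 2 edited lines, each as myoblasts in medium with 10% fetal bovine serum and as myotubes on day 3 of differentiation, in 2% horse serum. The edited lines carry deletions that paired guide RNAs and Cas9 made in the proximal promoter region of Meg3, a noncoding RNA gene of the imprinted Dlk1-Dio3 cluster. Their genotypes are labelled Dlk1-Dio3 overexpressor (line 2-4) and Dlk1-Dio3 knockout (line 2-7), and the study asked how the dosage of the cluster's noncoding RNAs bears on muscle cell state and differentiation. The control is a sorted population that received the pX458 vector alone, whereas each edited line was grown from a single cell. Genotype and clone can therefore not be told apart. The labels do not say whether replicates came from separate cultures, so the p-values measure the spread between these libraries, which may be technical.

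Muscle expresses its own forms of several of these enzymes, encoded by separate genes: Pfkm for phosphofructokinase, Pgam2 for phosphoglycerate mutase, Eno3 for enolase and Pygm for glycogen phosphorylase. During myogenesis these forms come up as forms used in other tissues decline, and muscle glycogen feeds glycolysis directly within the fibre. Pyruvate dehydrogenase kinases limit the entry of pyruvate into the mitochondrion, and the monocarboxylate transporters encoded by Slc16a1 and Slc16a3 carry lactate across the plasma membrane.

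Levels are given as CPM, in which each library's counts are divided by its total times a TMM normalization factor, in the order of replicates A, B and C. Library totals ran from 41544358 to 79140702 counts, and a count of 0 allowed at most 3 counts, or 0.0375 to 0.0693 CPM. These limits cover counting error only. A gene is said to have risen or fallen where edgeR's quasi-likelihood test gave a Benjamini-Hochberg adjusted p below 0.05 over all 17912 genes tested. Among the members 40 were tested, and the exception was Pygl, whose counts were too low. Meg3, the targeted gene, had 0 counts in every control and knockout library and 5222 to 7763 counts in each overexpressor library, so that it set the overexpressor line apart and did not separate knockout from control. All 7 markers of myoblasts and cell division were detected in every group, and their sum was 1858 to 1960 CPM in control, 3119 to 3314 in overexpressor and 3634 to 4054 in knockout myoblasts, and 2360 to 2439, 5328 to 6397 and 7492 to 9951 CPM in the corresponding myotubes. The largest part of this sum was Des, which encodes the muscle filament protein desmin, while Mki67, a marker of dividing cells, was at 138 to 284 CPM in myoblasts and 12 to 45.4 CPM in myotubes. The summed level of 7 myotube markers was 256.5 to 396.2 CPM in control myoblasts, 438.8 to 731.4 in overexpressor myoblasts and 9710 to 12480 in knockout myoblasts, and in myotubes it was 15960 to 16870, 23610 to 26250 and 33840 to 40620 CPM respectively. Knockout myoblasts, still in growth medium, thus held myotube markers far above the other myoblasts and below control myotubes. A list of 4 fibroblast and mesenchymal markers summed to 442.1 to 565.4 CPM in overexpressor myoblasts, 190.7 to 223 in both control groups and at most 48.22 in the remaining groups. These markers did not move together: of 3 tested in overexpressor against control myoblasts, 1 was higher and 2 were lower (log2 fold changes from -2.00 to 1.60). A neural list, nearly all Tubb3, reached 175.3 to 204.6 CPM in overexpressor myoblasts and at most 49.86 elsewhere, and the lists for adipocyte, endothelial, blood, epithelial and hepatocyte markers each summed to at most 2.34 CPM in any library. Overexpressor myotube replicate C stood apart from its group: the chi-square of counts per degree of freedom was 108 and 103 against replicates A and B, and 21 between those. Without it, 24 members in place of 22 were higher and 9 in place of 12 lower in overexpressor than in control myotubes. Other groups were uneven to a smaller degree. Overexpressor myoblast replicate B gave 34.1 and 30.2 against A and C, and 7.86 was found between those. Knockout myotube replicates A and C gave 50.4, where A and B gave 19.3 and B and C 22. In these bulk libraries, fewer cells of a type and less RNA per cell cannot be told apart, and the part of these marker lists in the results below was not tested.

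The counts of some members are uncertain because near-identical copies elsewhere in the genome can take or share their reads. The annotation holds 103 other genes or pseudogenes that match Gapdh over at least 300 bases at 95% identity or more, and Gapdh, one of the most abundant mRNAs in most cells, reached only 6.15 to 18.9 CPM. Pgk1, Eno1 and Ldha each have 4 such copies, Pgam1 has 2, and Gpi1, Tpi1, Pkm and Ldhb have 1 each. Values for these genes are those of the reads assigned to the named gene. The exons of 13 members also overlap a gene on the other strand, by 741 bases in Gpi1, 748 in Pfkp, 630 in Phkg1 and 603 in Pdha1. On the same strand, exons of Pkm overlap those of Gm49759 by 767 bases, and exons of Pfkm those of Gm26513 by 341. Whether counting used the strand is not given in the sources used here.

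Differentiation moved the members in both directions at once. In the control line, the muscle forms Pgam2, Pygm, Pfkm and Eno3 rose together with hexokinase 2 (Hk2) and glycogen synthase (Gys1), while Pgam1, Pygb, Pfkl, Eno1, Aldoc and Ldhb, forms used in other tissues, fell, as did the glucose transporter Slc2a1 and 3 of 4 pyruvate dehydrogenase kinases. The neuronal enolase Eno2 and the platelet form Pfkp rose. Of the 40 tested members, 13 (32.5%) rose and 19 (47.5%) fell in control, against 33.9% and 28.8% of all genes tested. The share that rose was close to that of all genes. The members' median log2 fold change was -0.24 and that of all genes 0.07. With library totals in place of TMM, these medians were -0.48 and -0.17, 10 members rose and 24 fell, and 37.9% of all called genes were higher, where TMM gave 54%. In the overexpressor line 18 members (45%) rose and 20 (50%) fell, against 29.8% and 33.0% of all genes. In the knockout line 15 (37.5%) rose and 13 (32.5%) fell, against 29.8% and 35.6%, and with library totals 34% of all called genes in this line were higher in place of 45.5%. The knockout median was -0.01 among members, 0.12 under DESeq2 size factors and -0.18 under library totals, so that its sign depended on the scaling. The 3 responses share no library, and 9 of the 40 tested members rose in each of them, where 14.6% of all genes did: Aldoa, Eno3, Gys1, Hk2, Pdk2, Pfkm, Pgam2, Phkg1 and Pygm. Another 9 fell in each, where 14.7% of all genes did: Hk1, Pdk1, Pdk3, Pdk4, Pfkfb1, Pfkl, Pgam1, Pygb and Slc2a1. In control, the calls of Aldoa, Phkg1, Pfkp and Pdha1 were lost under at least 1 alternative, and Aldoa was lost without any 1 of 4 libraries (adjusted p 0.0552 to 0.131). In the knockout line those of Hk1, Pfkp, Pygb and Gbe1 were lost under at least 1 alternative.

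**Figure D1:**
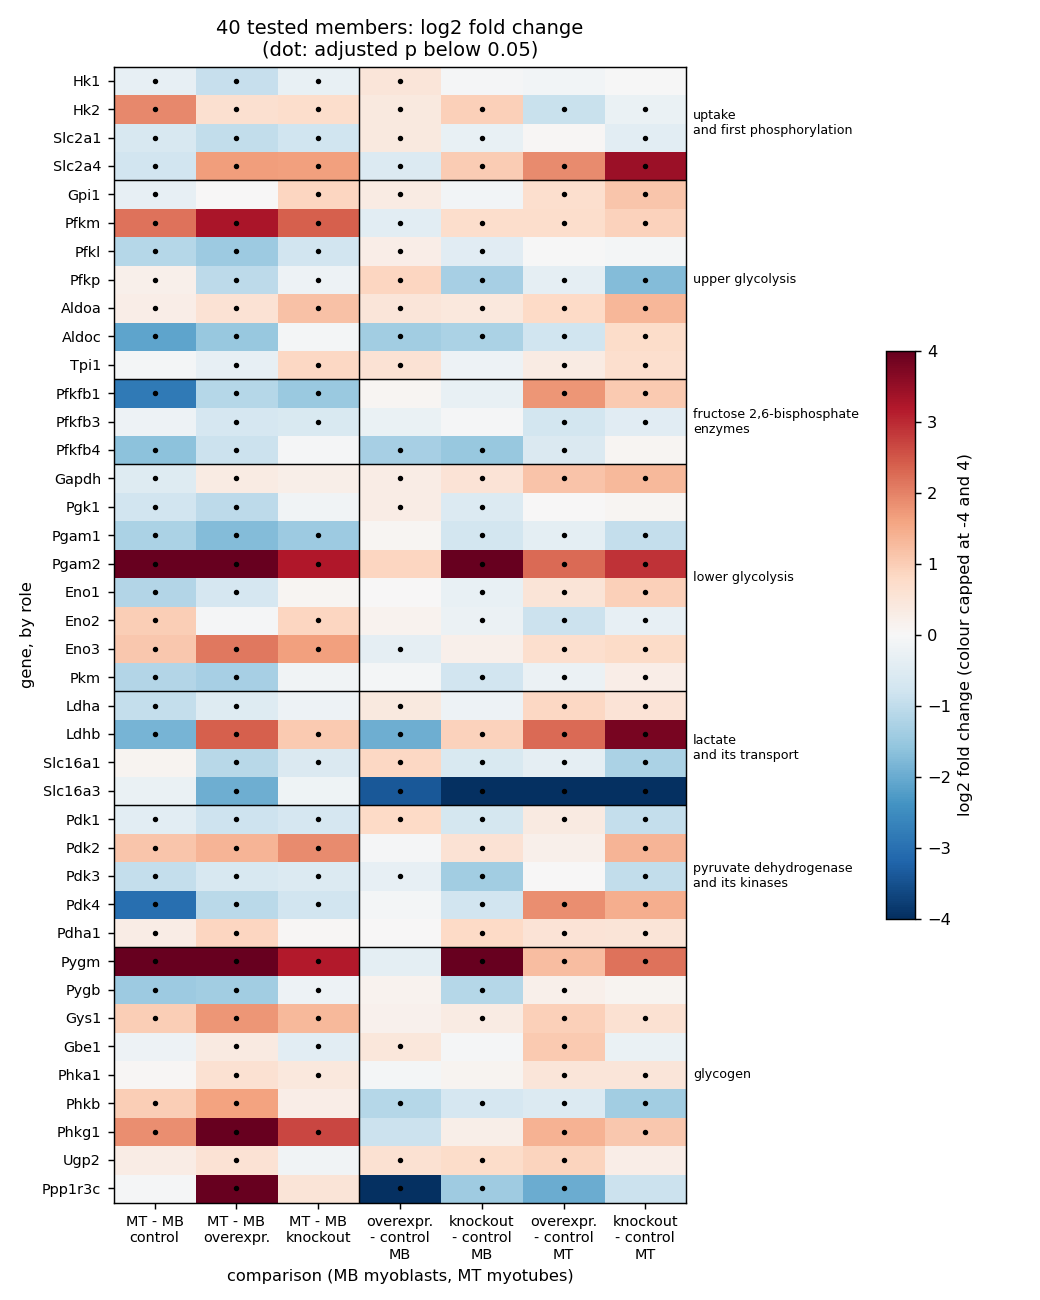
Log2 fold change (colour, capped at -4 and 4) of the 40 tested members, grouped by role, in 7 comparisons: myotubes minus myoblasts (MT - MB) in each line, then each edited line minus control in myoblasts and in myotubes. Dots mark an adjusted p below 0.05 from edgeR. Pgam2 and Pygm are deep red in all 3 differentiation columns and in knockout minus control myoblasts, and Slc16a3 is blue in all 4 columns of edited lines against control.

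Against control myoblasts, the overexpressor myoblasts had higher levels of several early steps (Hk1, Hk2, Slc2a1, Pfkp, Tpi1). Slc2a4, Pfkm and Aldoc, also of early steps, were lower in them. Against the same control, the knockout myoblasts had higher levels of the muscle forms Pgam2, Pygm and Pfkm and lower levels of Pgam1, Pygb, Pfkl, Pfkp and Aldoc. In overexpressor myoblasts 15 members (37.5%) were higher and 10 (25%) lower, against 20.7% and 19.7% of all genes tested, and the median log2 fold change was 0.09 among members (0.12 with genes at the floor set to their bound) and 0.02 among all genes. In knockout myoblasts 12 (30%) were higher and 18 (45%) lower, against 26.4% and 26.6%, with medians of -0.21 and 0.02. Both comparisons use the same control libraries. Set against each other, 12 members (30%) were higher and 19 (47.5%) lower in knockout than in overexpressor myoblasts, against 26.9% and 25.7% of all genes. At least 1 alternative ended the calls of Pfkl, Gapdh, Pgk1, Gbe1 and Slc2a4 in overexpressor myoblasts and of Eno1, Eno2 and Ppp1r3c in knockout myoblasts.

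In myotubes, more members stood above than below control in both edited lines, among them the muscle forms, Ldhb, Slc2a4, Pdk4 and Gys1, while Slc16a3, Slc16a1, Hk2 and Pfkp were below it. In overexpressor myotubes 22 members (55%) were higher and 12 (30%) lower than in control myotubes, against 26.2% and 30.9% of all genes, and the median was 0.35 among members and -0.04 among all genes. With library totals, 24 were higher and 8 lower, the medians were 0.50 and 0.11, and 57.8% of all called genes were higher in place of 45.8%. In knockout myotubes 21 (52.5%) were higher and 11 (27.5%) lower, against 31.0% and 37.0%, with medians of 0.39 and -0.07. Knockout against overexpressor myotubes gave 17 members higher (42.5%) and 14 lower (35%), against 29.1% and 30.6%. In control myotubes the summed level of all 41 members was 8128, 8050 and 7268 CPM (mean 7815). It was 11750, 10340 and 10590 CPM (mean 10900) in overexpressor and 11790, 12710 and 14820 CPM (mean 13110) in knockout myotubes. Aldoa, Eno3 and Pkm were the most abundant members in each of these groups and weighed most in this sum. At least 1 alternative ended the calls of Aldoc, Pgam1, Pkm, Pygb, Phkb, Slc16a1 and Pdk1 in overexpressor myotubes and of Hk2, Aldoc, Eno2, Pkm and Phkg1 in knockout myotubes.

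Among the members, the muscle forms Pgam2 and Pygm gave the largest rises on differentiation in the control and overexpressor lines. Pgam2, muscle phosphoglycerate mutase, was at 0.225, 0.365 and 0.468 CPM in control myoblasts, 0.779, 0.388 and 0.739 in overexpressor myoblasts and 15.3, 25 and 20 in knockout myoblasts. In myotubes it reached 25.5, 26.1 and 25.1 CPM in control, 149, 93.9 and 123 in overexpressor and 162, 178 and 223 in knockout. Control and overexpressor myoblasts overlapped and were both low (12 to 39 counts per library), knockout myoblasts lay just under control myotubes, and every library of the edited myotubes was above all control myotubes. Differentiation raised Pgam2 73.2-fold in control (log2 fold change 6.19, SE 0.30, adjusted p = 7.25e-11) and 9.31-fold in knockout (3.22, SE 0.21, adjusted p = 4.19e-09). Knockout myoblasts were 57.7-fold above control myoblasts (5.85, SE 0.30, adjusted p = 3.22e-10), and in myotubes the excess over control was 7.34-fold in knockout (2.88, SE 0.21, adjusted p = 8.71e-09) and 4.78-fold in overexpressor (2.26, SE 0.20, adjusted p = 1.36e-07).

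Pygm, muscle glycogen phosphorylase, which releases glucose units from glycogen, was likewise raised in knockout myoblasts and in all myotubes. Its levels were 2.4, 2.5 and 1.89 CPM in control, 1.98, 1.38 and 1.83 in overexpressor and 70.2, 87.2 and 72.8 CPM in knockout myoblasts. They were 159, 155 and 150 CPM in control, 417, 316 and 369 in overexpressor and 604, 665 and 802 in knockout myotubes. Control and overexpressor myoblasts overlapped, and no other pair of groups did. The rise on differentiation was 68-fold in control (log2 fold change 6.09, SE 0.16, adjusted p = 3.45e-15), 212-fold in overexpressor (7.73, SE 0.17, adjusted p = 5.85e-16) and 9-fold in knockout (3.17, SE 0.13, adjusted p = 4.36e-12). Knockout myoblasts were 33.7-fold above control myoblasts (5.08, SE 0.16, adjusted p = 5.53e-14). The summed myotube markers were also higher in knockout than in control myoblasts and in the myotubes of each line, and their part in the Pygm and Pgam2 results was not tested. In overexpressor myoblasts the sum of these markers was above control. Of the 7 markers, 5 were higher and 0 lower there than in control (all genes tested: 20.7% and 19.7%). The libraries of 2 of the 7 stood clear of overlap with control. Pgam2 and Pygm overlapped control there.

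Pfkm, muscle phosphofructokinase, which catalyses the committed step of glycolysis, was at 96.3, 107 and 100 CPM in control, 80.4, 67.8 and 80.2 in overexpressor and 152, 186 and 158 CPM in knockout myoblasts. Myotubes had 463, 452 and 442 CPM in control, 811, 667 and 734 in overexpressor and 776, 829 and 995 in knockout. Overexpressor myoblasts lay below every control library and knockout myoblasts above, and both edited lines were above control in myotubes. The log2 fold change on differentiation was 2.16 in control (SE 0.10, adjusted p = 2.17e-12), 3.28 in overexpressor (SE 0.11, adjusted p = 2.09e-14) and 2.39 in knockout (SE 0.10, adjusted p = 3.33e-12).

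Eno3, muscle enolase, was already abundant in myoblasts, at 533, 582 and 558 CPM in control, 462, 392 and 442 in overexpressor and 607, 700 and 616 in knockout. Myotubes had 1190, 1290 and 1050 CPM in control, 2060, 1740 and 1820 in overexpressor and 1770, 1910 and 2310 in knockout. The edited myotubes overlapped each other and lay above all control myotubes (log2 fold change 0.67, SE 0.10, adjusted p = 1.58e-05 for overexpressor, and 0.76, SE 0.10, adjusted p = 2.99e-06 for knockout). In myoblasts Eno3 was lower in overexpressor than in control (-0.37, SE 0.10, adjusted p = 0.00701), and the difference between knockout and control did not pass the threshold (adjusted p = 0.106).

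**Figure D2:**
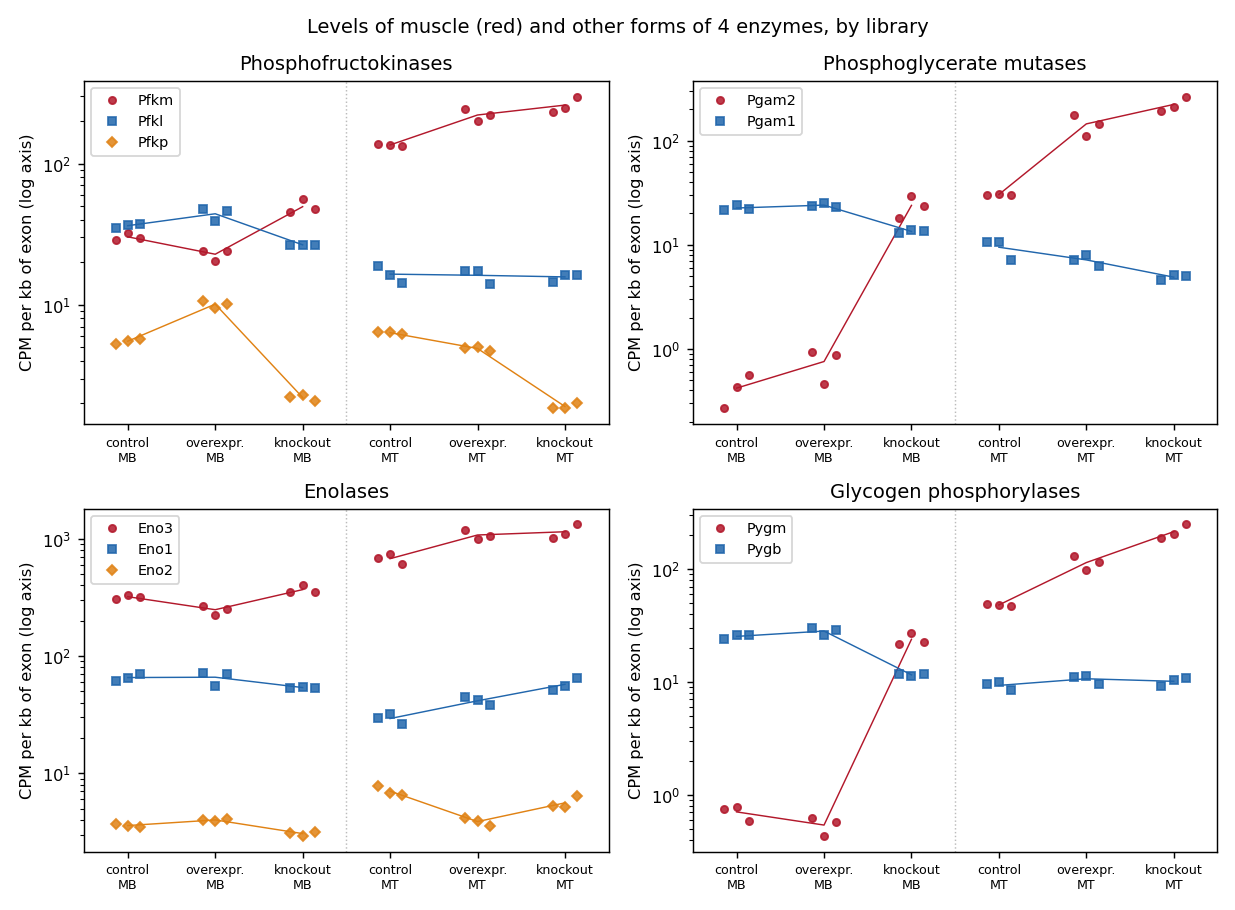
CPM per kb of annotated exon (log axis) of the genes of 4 enzyme families in the 6 groups; each point is 1 library and lines join group means within a stage (MB myoblasts, MT myotubes). Muscle forms are red. Pgam2 and Pygm lie far below Pgam1 and Pygb in control and overexpressor myoblasts and above them in knockout myoblasts and in all myotubes.

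The forms used in other tissues mostly fell as the muscle forms rose. Pgam1 was at 42.5, 47.9 and 43.9 CPM in control, 47.2, 50.1 and 45.9 in overexpressor and 25.7, 27.4 and 26.9 CPM in knockout myoblasts. The myotube levels were 21.3, 21 and 14.1 CPM in control, 14.3, 15.9 and 12.4 in overexpressor and 9.12, 10.1 and 9.85 in knockout. Pgam1 fell on differentiation in each line, by 1.25 on the log2 scale in control (SE 0.12, adjusted p = 5.97e-08), and knockout was below control in both stages. Its lower level in overexpressor than in control myotubes was lost without any 1 of 3 libraries (adjusted p 0.0572 to 0.175). Pygb, the brain form of glycogen phosphorylase, was at 116, 124 and 125 CPM in control, 143, 124 and 140 in overexpressor and 56.3, 54.2 and 56 CPM in knockout myoblasts. In myotubes it stood at 45.7, 47.8 and 40.7 CPM in control, 53.1, 54.5 and 46.1 in overexpressor and 44.6, 49.7 and 51.6 in knockout. Knockout myoblasts were thus close to the level of myotubes, 1.13 on the log2 scale below control (log2 fold change -1.13, SE 0.08, adjusted p = 1.57e-09), and the 3 myotube groups overlapped. Pygl, the liver form, had 4 to 13 counts in control myoblasts, 1 or 2 in control myotubes and at most 1 in any library of the edited lines. The mean of control myoblasts was 3.06-fold above the floor of overexpressor and 3.44-fold above that of knockout myoblasts. Control replicate A, with 4 counts (0.0749 CPM), was close to the floor, and the difference was not tested.

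Eno1, the enolase of most tissues, was at 331, 351 and 376 CPM in control, 389, 299 and 377 in overexpressor and 289, 293 and 287 CPM in knockout myoblasts. It was at 160, 171 and 142 CPM in control, 239, 227 and 204 in overexpressor and 274, 301 and 351 in knockout myotubes. Eno1 fell on differentiation in control (log2 fold change -1.16, SE 0.10, adjusted p = 1.69e-08) and in overexpressor (-0.67, SE 0.10, adjusted p = 1.62e-05), whereas the knockout groups overlapped, and both edited lines exceeded control in myotubes. Pfkl, the liver form of phosphofructokinase, fell in each line, from a mean of 242 to 110 CPM in control.

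Within each family the share of the muscle form was computed from counts per kb of exon, so that genes of different length could be compared. Pgam2 made up 1.82% ± 0.61 of the Pgam family in control myoblasts, 3.07% ± 1.10 in overexpressor and 63.5% ± 4.95 in knockout myoblasts (SD, n = 3 throughout), and 76.4% ± 3.77, 95.1% ± 1.57 and 97.8% ± 0.29 in the corresponding myotubes. Pygm made up 2.71% ± 0.44, 1.86% ± 0.20 and 67.2% ± 2.96 of the Pyg family in myoblasts and 83.8% ± 0.86, 91.4% ± 1.48 and 95.5% ± 0.35 in myotubes. Knockout myoblasts therefore held more Pygm than the other 2 Pyg genes together, also by coding length and without length (57.9% each). For Pgam2 the majority turned with the length used, since its share in knockout myoblasts was 42.7% by coding length and 42.6% without length.

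Pfkm rose from 42% ± 1.04 of the Pfk family in control, 29.6% ± 0.37 in overexpressor and 63.1% ± 2.34 of it in knockout myoblasts to 85.6% ± 1.02, 91.2% ± 1.14 and 93.6% ± 0.55 in myotubes. Eno3 was the main enolase in every group, from 78.1% ± 0.91 in overexpressor myoblasts to 96% ± 0.31 in overexpressor myotubes. Of 36 comparisons of shares, the libraries overlapped in 2, Pgam2 between control and overexpressor myoblasts and Eno3 between control and knockout myotubes. The other comparisons each gave an exact two-sided permutation p = 0.1, the smallest that 3 against 3 libraries allow (adjusted p = 0.1059 over the 36). The size of the shares depends on the length used: divided by coding length, Pfkm was 23.5% of its family in control myoblasts and 43.1% in knockout myoblasts. Pgam1 and Eno1 enter these shares with the reads assigned to them alone, and the part of their copies was not tested.

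**Figure D3:**
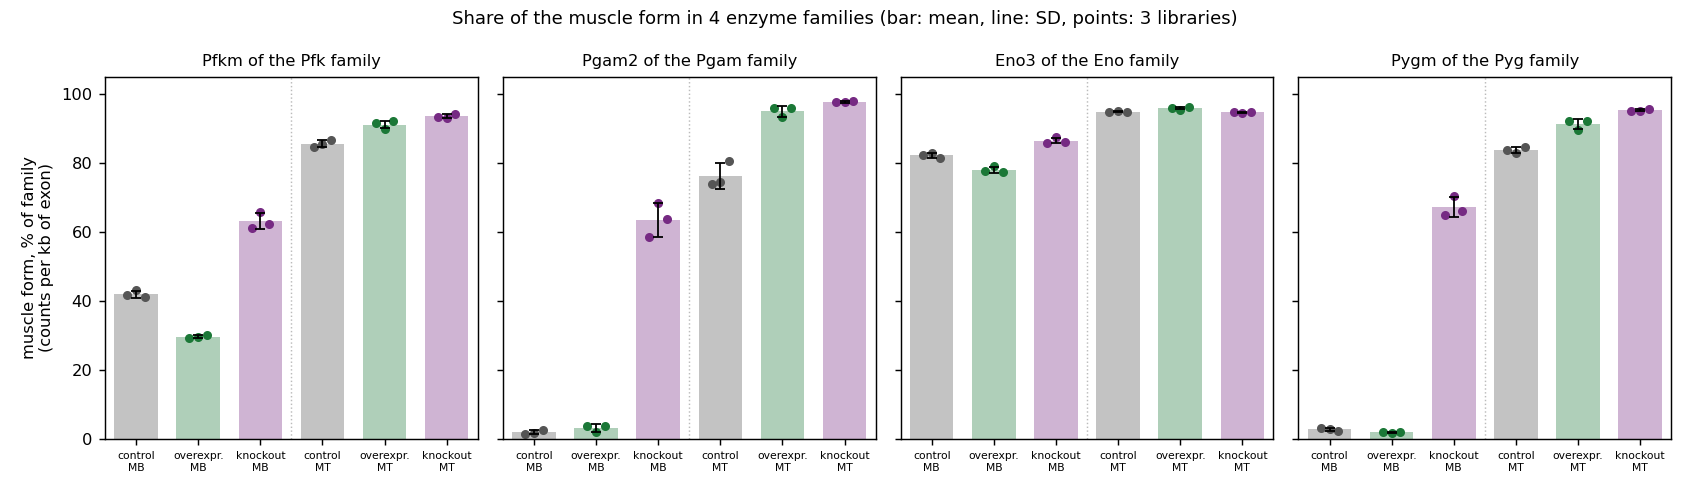
Share of the muscle form in the total of its family (percent, from counts per kb of exon) for Pfkm, Pgam2, Eno3 and Pygm in the 6 groups. Bars are means of 3 libraries, lines the SD and points the libraries; Pgam2 and Pygm sit under 4% in control and overexpressor myoblasts and above 58% in the other 4 groups.

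The promoter windows of these genes are shown because their transcripts rose together. MyoD and myogenin, the transcription factors that drive muscle genes, bind E-boxes such as CAGCTG and CACCTG, and MEF2 factors bind an A/T-rich element. The windows are RefSeq promoters on GRCm38.p6, 250 bases before to 50 after each start site, written 5′ to 3′ on the gene's strand, with capitals for matches, on either strand, of both E-boxes and of the MEF2 motif. They lie at chr11:5803747-5804046 on the minus strand for Pgam2, and on the plus strand at chr19:6384158-6384457 for Pygm, chr11:70656926-70657225 for Eno3 and chr19:41911621-41911920 for Pgam1, which is shown for contrast.
Pgam2: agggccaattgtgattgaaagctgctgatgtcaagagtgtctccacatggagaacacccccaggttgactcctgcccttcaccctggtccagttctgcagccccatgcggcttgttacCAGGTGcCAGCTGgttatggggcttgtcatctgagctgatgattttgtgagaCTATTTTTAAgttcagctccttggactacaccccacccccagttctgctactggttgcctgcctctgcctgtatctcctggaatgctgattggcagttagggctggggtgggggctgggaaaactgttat
Pygm: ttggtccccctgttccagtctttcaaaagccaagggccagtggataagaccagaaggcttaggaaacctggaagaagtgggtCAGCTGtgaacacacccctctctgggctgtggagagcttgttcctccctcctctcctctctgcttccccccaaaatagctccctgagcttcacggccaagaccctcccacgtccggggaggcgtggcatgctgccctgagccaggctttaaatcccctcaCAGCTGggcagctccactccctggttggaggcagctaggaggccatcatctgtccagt
Eno3: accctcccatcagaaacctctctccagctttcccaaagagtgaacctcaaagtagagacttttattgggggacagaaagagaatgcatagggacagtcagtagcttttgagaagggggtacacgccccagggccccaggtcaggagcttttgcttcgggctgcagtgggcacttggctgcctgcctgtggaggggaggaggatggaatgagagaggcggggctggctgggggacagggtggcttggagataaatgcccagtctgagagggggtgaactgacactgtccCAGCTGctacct
Pgam1: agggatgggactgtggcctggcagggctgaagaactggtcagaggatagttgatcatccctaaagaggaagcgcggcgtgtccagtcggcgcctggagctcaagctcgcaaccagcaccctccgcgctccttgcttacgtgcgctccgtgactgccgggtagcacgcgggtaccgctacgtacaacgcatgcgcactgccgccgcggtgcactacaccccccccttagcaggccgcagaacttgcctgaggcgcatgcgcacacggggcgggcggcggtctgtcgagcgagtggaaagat

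Counted from the start site, the Pgam2 window held CACCTG at -132 (on the opposite strand, so that its reverse complement is printed), CAGCTG at -125 and a MEF2 match at -80. Pygm held CAGCTG at -168 and -8, Eno3 held it at 39, and Pgam1 held none of these motifs. Windows were found for 40 of the 41 members, Slc2a4 being the exception. CAGCTG occurred in 13 of the members' 58 windows, CACCTG in 7 and the MEF2 motif in 2, and across all 32851 windows of this length 16.3%, 20.2% and 3.19% held them, searched on both strands. The 9 members that rose in every line had 15 windows, of which CAGCTG was in 5 (Aldoa, Eno3, Gys1, Pgam2 and Pygm), CACCTG in 4 (Pfkm, Pgam2 and Phkg1) and the MEF2 motif in 1. The 9 that fell in every line had 14 windows, of which CAGCTG was in 2 (Pdk1 and Pfkfb1), CACCTG in 1 (Hk1) and the MEF2 motif in 1 (Pfkfb1). Pfkm, which is not shown, held no CAGCTG. The core ACGTG of the element bound by hypoxia-inducible factors was in 24 of the members' 58 windows and in 19.6% of all windows. It was in 7 of the 15 windows of the rising and 5 of the 14 windows of the falling members. A match is a description of the letters in the window and not evidence of binding.

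Glucose enters muscle cells through GLUT1, encoded by Slc2a1, and through the insulin-responsive GLUT4, encoded by Slc2a4. Slc2a1 was at 121, 131 and 129 CPM in control, 176, 157 and 172 in overexpressor and 108, 102 and 103 CPM in knockout myoblasts, and at 85, 83 and 74.5, 89.9, 86.6 and 76.5, and 58.2, 61.2 and 61 CPM in the corresponding myotubes. It fell on differentiation in all 3 lines (log2 fold change -0.65 in control, -0.996 in overexpressor and -0.80 in knockout, SE 0.07 each). Knockout was below control in both stages, by 0.43 in myotubes (log2 fold change -0.43, SE 0.07, adjusted p = 3.51e-05). Slc2a4 was low, at 1.98, 1.92 and 1.78 CPM in control, 0.918, 1.19 and 1.83 in overexpressor and 3.98, 3.82 and 3.75 CPM in knockout myoblasts. In myotubes it had 1.17, 1.33 and 0.902 CPM in control, 4.08, 4.82 and 3.67 in overexpressor and 12, 11.9 and 12 in knockout. Slc2a4 thus fell on differentiation in control (-0.75, SE 0.20, adjusted p = 0.00292) and rose in overexpressor (1.69, SE 0.19, adjusted p = 2.62e-07) and knockout (1.64, SE 0.17, adjusted p = 1.54e-07). Knockout myotubes held 10.6-fold more than control myotubes (3.41, SE 0.19, adjusted p = 2.81e-11). The lower level in overexpressor than in control myoblasts was lost without any 1 of 4 libraries (adjusted p 0.075 to 0.189).

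Hexokinases trap glucose in the cell as glucose 6-phosphate. Hk2, the insulin-regulated form of muscle, was at 39.8, 41.2 and 41.7 CPM in control, 55.3, 54.3 and 51.6 in overexpressor and 81.4, 79.2 and 77.6 CPM in knockout myoblasts. Its level in myotubes was 163, 145 and 154 CPM in control, 82.6, 87.6 and 80 in overexpressor and 129, 130 and 126 in knockout. The order of the lines thus differed between stages: control was the lowest of the myoblasts and the highest of the myotubes, with no overlap between groups of a stage. Hk2 rose 3.76-fold in control (log2 fold change 1.91, SE 0.06, adjusted p = 6.33e-15), 1.55-fold in overexpressor and 1.62-fold in knockout, and the rise was smaller than in control by 1.28 (SE 0.08, adjusted p = 5.83e-10) and 1.22 (SE 0.08, adjusted p = 9.38e-10) on the log2 scale. The lower level in knockout than in control myotubes (-0.26, SE 0.06, adjusted p = 0.000473) was lost with DESeq2 size factors (-0.13, adjusted p = 0.0844). Hk1, the more widespread form, was higher in overexpressor than in control myoblasts (means of 377 and 270 CPM) and fell on differentiation in each line.

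In upper glycolysis, Pfkp, the platelet form of phosphofructokinase, separated the lines. It was at 70.5, 74.6 and 76.8 CPM in control, 143, 128 and 135 in overexpressor and 29.6, 30.9 and 28.1 CPM in knockout myoblasts. In myotubes it was at 86, 85.6 and 83.3 CPM in control, 66.6, 67.7 and 62.8 in overexpressor and 24.7, 25 and 26.8 in knockout. Pfkp was thus 1.83-fold above control in overexpressor myoblasts (a log2 difference of 0.87, SE 0.06, adjusted p = 1.7e-09) and 2.5-fold below it in knockout myoblasts (-1.32, SE 0.06, adjusted p = 5.07e-12). In knockout myotubes it was 3.33-fold below control (-1.74, SE 0.06, adjusted p = 1.01e-13). Aldoa, the aldolase of muscle, was at 1000, 1110 and 1120 CPM in control, 1640, 1310 and 1580 in overexpressor and 1410, 1530 and 1410 CPM in knockout myoblasts. It reached 1360, 1340 and 1180 CPM in control, 2530, 2120 and 2100 in overexpressor and 2820, 3150 and 3760 in knockout myotubes. Both edited lines were above control in each stage, and knockout myotubes had a log2 fold change of 1.33 over control (SE 0.11, adjusted p = 4.74e-09).

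Aldoc, the brain aldolase, was below 3 CPM in every library and fell on differentiation in control from a mean of 2.36 to 0.552 CPM. Gpi1, which interconverts glucose 6-phosphate and fructose 6-phosphate, fell on differentiation in control from a mean of 346 to 275 CPM, rose in knockout from 324 to 592 and stood at 435 and 436 CPM in overexpressor myoblasts and myotubes. Tpi1, triosephosphate isomerase, rose in knockout from 601 to 1060 CPM and fell in overexpressor from 1040 to 836, and the latter call was lost without replicate C of overexpressor myotubes (adjusted p = 0.0553). Both genes were higher in each edited line than in control in myotubes.

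Fructose-2,6-bisphosphate activates phosphofructokinase and is made and removed by the bifunctional enzymes of the Pfkfb genes. Pfkfb1 was at 3.16, 2.35 and 2.43 CPM in control, 3.21, 2.48 and 2.77 in overexpressor and 2.47, 2.28 and 1.73 CPM in knockout myoblasts. Myotubes had 0.303, 0.343 and 0.451 CPM in control, 1.02, 1.36 and 1.4 in overexpressor and 0.615, 1.04 and 0.627 in knockout. In myoblasts each edited line overlapped control, and knockout lay just below overexpressor, at most 2.47 against at least 2.48 CPM. The fall on differentiation was 2.84 on the log2 scale in control (log2 fold change -2.84, SE 0.26, adjusted p = 1.69e-08), 1.16 in overexpressor (-1.16, SE 0.21) and 1.49 in knockout (-1.49, SE 0.23). Pfkfb3 was at 10.1, 12.2 and 12.5 CPM in control, 10.6, 8.69 and 9.82 in overexpressor and 10.5, 11.4 and 11.6 CPM in knockout myoblasts, and at 11.5, 8.93 and 9.67, 6.24, 6.25 and 5.81, and 7.73, 7.1 and 7.36 CPM in the corresponding myotubes. Both edited lines were below control in myotubes (-0.72, SE 0.11, adjusted p = 2.09e-05 in overexpressor, and -0.44, SE 0.11, adjusted p = 0.00193 in knockout). Pfkfb4 was at a mean of 31.3 CPM in control myoblasts, 12.4 and 10.9 in overexpressor and knockout myoblasts, and 10, 6.75 and 10.5 in the corresponding myotubes. It fell on differentiation in control (-1.64, SE 0.11, adjusted p = 4e-10), and in knockout, where it was low from the start, the 2 stages overlapped.

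**Figure D4:**
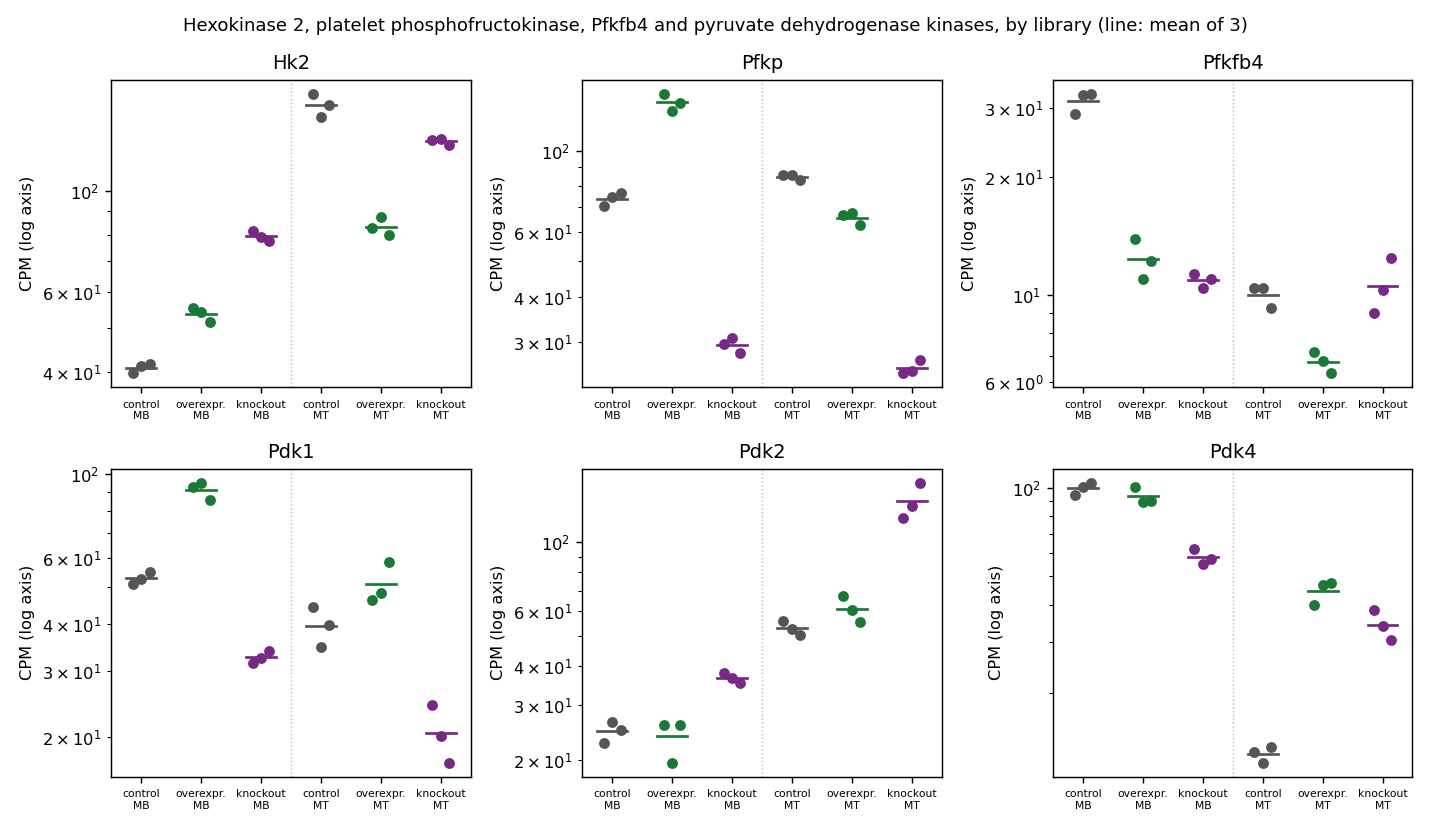
CPM (log axis) of Hk2, Pfkp, Pfkfb4, Pdk1, Pdk2 and Pdk4 in the 6 groups; points are libraries and lines the means of 3 (grey control, green overexpressor, purple knockout; MB myoblasts, MT myotubes). Hk2 is lowest in control among myoblasts and highest in control among myotubes, and Pdk4 drops furthest in control.

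In lower glycolysis, apart from Pgam and Eno, pyruvate kinase Pkm was at 2760, 2980 and 3040 CPM in control, 2970, 2550 and 2840 in overexpressor and 1730, 1720 and 1730 CPM in knockout myoblasts. The myotube levels were 1350, 1360 and 1210 CPM in control, 1210, 1090 and 1030 in overexpressor and 1380, 1520 and 1790 in knockout. Knockout myoblasts were below every other myoblast library (log2 fold change against control -0.76, SE 0.09, adjusted p = 1.07e-06), and Pkm fell in control (-1.16, SE 0.09, adjusted p = 2.52e-09) and overexpressor (-1.33, SE 0.09, adjusted p = 3.75e-10), while the knockout stages overlapped. The fall was smaller in knockout than in control by 1.02 on the log2 scale (difference 1.02, SE 0.13, adjusted p = 3.35e-06). The gene totals do not separate the M1 and M2 splice forms. Pgk1, phosphoglycerate kinase, was lower in knockout than in control myoblasts (means of 32.2 and 46.7 CPM) and did not pass the threshold between lines in myotubes. Eno2, the neuronal enolase, rose in control from 16.9 to 33.2 CPM and in knockout from 14.4 to 26.3, while overexpressor had 18.8 and 18.2. The reads assigned to Gapdh fell on differentiation in control from 10.8 to 7.49 CPM and rose in overexpressor from 13.2 to 16.5, from reads that its many copies can share.

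Apart from Ppp1r3c, which was at the floor in overexpressor myoblasts, the member that differed most between the edited lines and control encodes a lactate exporter. Slc16a3, which encodes the low-affinity lactate exporter MCT4 of glycolytic muscle, was at 31.2, 33.5 and 34 CPM in control, 3.59, 2.46 and 3.4 in overexpressor and 0.602, 0.437 and 0.391 CPM in knockout myoblasts. Its level in myotubes was 32.9, 28.1 and 21.5 CPM in control, 0.891, 0.688 and 0.847 in overexpressor and 0.307, 0.435 and 0.523 in knockout. Every library of the edited lines was below every control library of both stages. Against control, Slc16a3 was 10.4-fold lower in overexpressor myoblasts (a log2 difference of -3.38, SE 0.17, adjusted p = 2.55e-11), 69.4-fold lower in knockout myoblasts (-6.12, SE 0.21, adjusted p = 1.05e-13), 34-fold lower in overexpressor myotubes (-5.09, SE 0.20, adjusted p = 2.29e-13) and 65.6-fold lower in knockout myotubes (-6.04, SE 0.22, adjusted p = 8.22e-14). All 4 calls held under every alternative run. On differentiation it fell in overexpressor (-1.96, SE 0.20, adjusted p = 6.27e-08), and the stages overlapped in control and in knockout.

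Slc16a1, which encodes MCT1, a transporter that can carry lactate either way, had means of 116 CPM in control, 207 in overexpressor and 76.3 CPM in knockout myoblasts and of 125, 96.9 and 51.6 CPM in the corresponding myotubes. Overexpressor was thus above control in myoblasts (a log2 difference of 0.84, SE 0.11, adjusted p = 3.3e-06) and knockout below it in both stages (-0.61, SE 0.11, adjusted p = 8.42e-05 in myoblasts, and -1.28, SE 0.11, adjusted p = 6.93e-09 in myotubes). The lower level in overexpressor than in control myotubes was lost with library totals (adjusted p = 0.1).

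Lactate dehydrogenase converts pyruvate to lactate and back, with Ldha the main gene of glycolytic muscle and Ldhb that of heart. Ldha was at 896, 942 and 963 CPM in control, 1310, 1120 and 1270 in overexpressor and 818, 799 and 817 CPM in knockout myoblasts, and at 518, 509 and 423, 936, 834 and 827, and 634, 695 and 789 CPM in the corresponding myotubes. It fell on differentiation in control (log2 fold change -0.95, SE 0.09, adjusted p = 3.29e-08), and both edited lines exceeded control in myotubes (0.84, SE 0.09, adjusted p = 2.1e-07 in overexpressor, and 0.55, SE 0.09, adjusted p = 3.01e-05 in knockout). Ldhb was at 5.94, 8.17 and 7.42 CPM in control, 1.78, 1.94 and 1.85 in overexpressor and 12.6, 14.3 and 14.1 CPM in knockout myoblasts. In myotubes it was at 2.14, 2.24 and 1.62 CPM in control, 9.76, 10.5 and 8.72 in overexpressor and 24.2, 26.3 and 33.2 in knockout. The myoblast groups stood apart from each other, as did the myotube groups, and knockout was the highest in each stage. Ldhb fell on differentiation in control (-1.85, SE 0.15, adjusted p = 6.07e-09) and rose in overexpressor (2.38, SE 0.15, adjusted p = 1.7e-10) and in knockout (1.03, SE 0.14, adjusted p = 3.07e-06). In knockout myotubes it was 14-fold above control (3.81, SE 0.16, adjusted p = 4.7e-13).

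**Figure D5:**
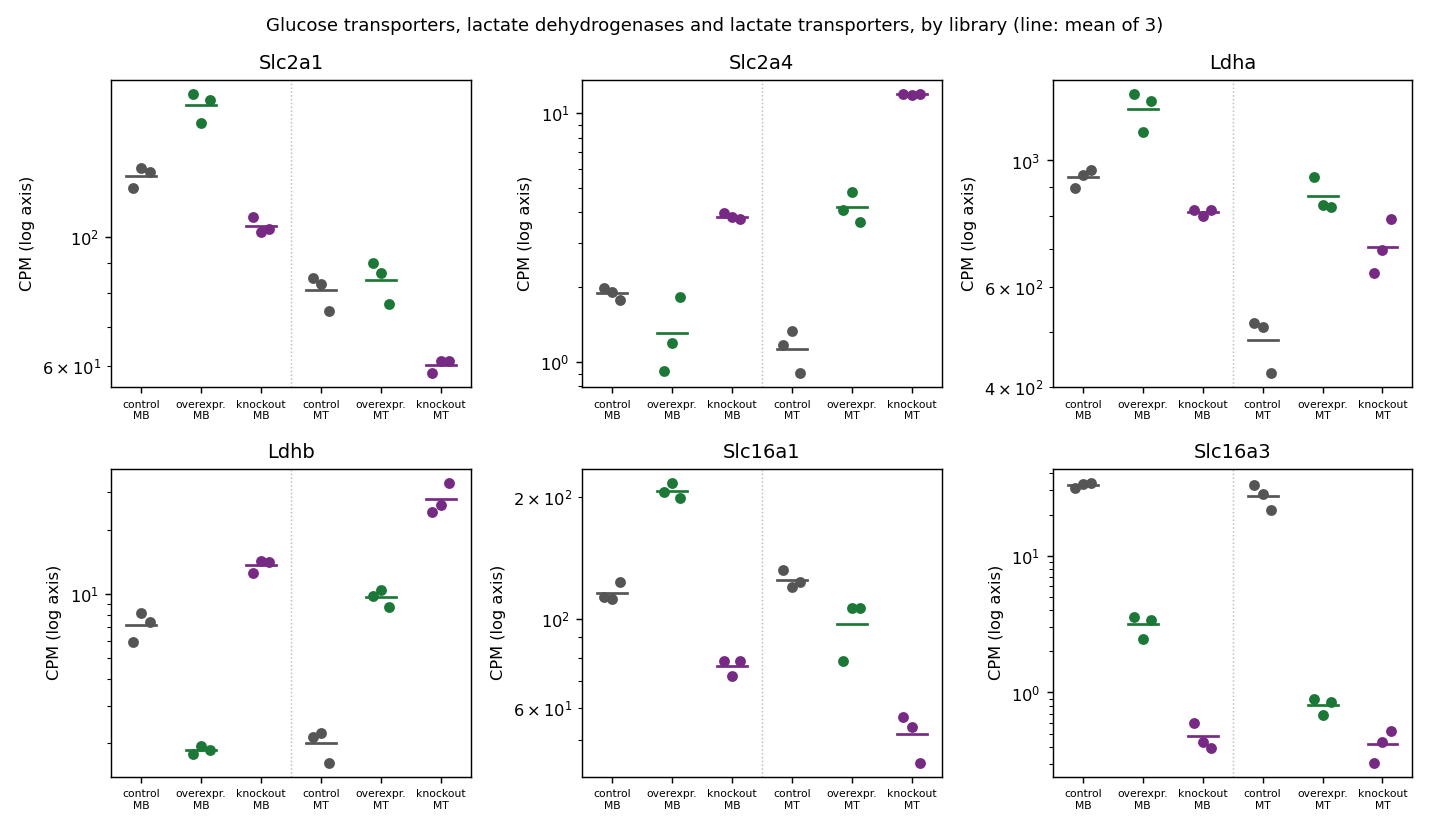
CPM (log axis) of the glucose transporters Slc2a1 and Slc2a4, the lactate dehydrogenases Ldha and Ldhb and the lactate transporters Slc16a1 and Slc16a3 in the 6 groups; points are libraries and lines the means of 3 (grey control, green overexpressor, purple knockout; MB myoblasts, MT myotubes). Control sits far above both edited lines for Slc16a3, and Slc2a4 and Ldhb are highest in knockout myotubes.

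Pyruvate dehydrogenase commits pyruvate to the mitochondrion and is switched off by 4 kinases. Pdk4, the kinase known to respond to fasting and fatty acids in muscle, was at 94.4, 101 and 104 CPM in control, 101, 89.6 and 90.2 in overexpressor and 61.9, 55.1 and 57.4 CPM in knockout myoblasts. Myotubes had 12.6, 11.6 and 13.1 CPM in control, 39.9, 46.6 and 47.5 in overexpressor and 38.3, 34 and 30.4 in knockout. Control myotubes were thus below every other library. Pdk4 fell 8.02-fold in control (log2 fold change -3.00, SE 0.10, adjusted p = 1.14e-14), 2.1-fold in overexpressor (-1.07, SE 0.09, adjusted p = 5.54e-09) and 1.7-fold in knockout (-0.76, SE 0.09, adjusted p = 7.39e-07). The difference from the control response was 1.94 in overexpressor (SE 0.13, adjusted p = 1.08e-09) and 2.24 in knockout (SE 0.13, adjusted p = 1.65e-10).

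Of the other kinases, Pdk1 and Pdk3 also fell on differentiation in each line, and Pdk2 rose. Pdk1 had means of 52.9, 91.1 and 32.6 CPM in control, overexpressor and knockout myoblasts and of 39.6, 50.9 and 20.5 in myotubes, so that knockout was below control in both stages (log2 fold change -0.70, SE 0.11, adjusted p = 4.23e-05, and -0.95, SE 0.11, adjusted p = 8.78e-07). Pdk2, a broadly expressed form, was 135 CPM in knockout myotubes against 53.1 in control (1.35, SE 0.11, adjusted p = 4.66e-09). Pdk3 was lower in knockout than in control in both stages, with means of 19 and 50.2 CPM in myoblasts and 13.1 and 25.7 in myotubes. Pdha1, a catalytic subunit of the dehydrogenase itself, was higher in knockout than in control myoblasts (447 and 257 CPM) and higher in both edited lines than in control in myotubes (467 and 457 against 318 CPM). The overexpressor mean rested on 417, 427 and 558 CPM, and without replicate C the log2 fold change over control was 0.51 in place of 0.55 (adjusted p = 1.85e-05).

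Among the glycogen genes other than the phosphorylases, Gys1, glycogen synthase of muscle, rose on differentiation from 81.5 to 163 CPM in control, from 91.3 to 314 in overexpressor and from 102 to 249 in knockout (log2 fold change 1.00, 1.78 and 1.29, SE 0.08 each). Both edited lines exceeded control in myotubes (0.95, SE 0.08, adjusted p = 1.47e-08 in overexpressor, and 0.62, SE 0.08, adjusted p = 2.91e-06 in knockout). Gbe1, the glycogen branching enzyme, reached 22.4 CPM in overexpressor myotubes against 11 in control and 9.2 in knockout (1.03, SE 0.16, adjusted p = 1.47e-05 for overexpressor against control). Ugp2, which makes the UDP-glucose that glycogen synthase uses, was higher in both edited lines than in control in myoblasts (103 and 112 against 67 CPM) and in overexpressor myotubes, at 125, 134 and 205 against a mean of 82.8 CPM. The high value was that of replicate C, and without it the log2 fold change was 0.75 in place of 0.90 (adjusted p = 1.89e-06).

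Phosphorylase kinase, which activates Pygm, showed different patterns by subunit. Phka1, the muscle alpha subunit, was higher in overexpressor and knockout than in control myotubes, at 41.3 and 41.6 against 29.6 CPM. Phkb, the beta subunit, rose on differentiation in control from 70.6 to 139 CPM and was lower in both edited lines at each stage, with 79.9, 79.7 and 128 CPM in overexpressor myotubes (without replicate C, -0.70 in place of -0.54 against control, adjusted p = 4.18e-06) and 53.5 CPM in knockout myotubes (log2 fold change -1.38, SE 0.15, adjusted p = 6.26e-07). Phkg1, the muscle catalytic subunit, was low in myoblasts with 0 to 5 counts per library and had 9 to 12 counts in control, 31 to 42 in overexpressor and 16 to 31 in knockout myotubes. Ppp1r3c, a subunit that targets protein phosphatase to glycogen, was at 0.412, 0.923 and 0.78 CPM in control, 0, 0 and 0.0231 in overexpressor and 0.258, 0.182 and 0.338 CPM in knockout myoblasts. It was at 0.758, 0.87 and 0.415 CPM in control, 0.267, 0.175 and 0.0695 in overexpressor and 0.444, 0.301 and 0.376 in knockout myotubes. Overexpressor libraries were the lowest of each stage, and the Ppp1r3c mean of control myoblasts was 10.9-fold above the floor of overexpressor myoblasts.

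The response to differentiation itself differed between lines for most members. Against the control response, the overexpressor response was higher for 19 members (47.5%) and lower for 10 (25%), where 16.6% and 22.3% of all genes tested were called, and the median difference was 0.39 on the log2 scale among members and -0.05 among all genes. With library totals 22 were higher and 6 lower, the medians were 0.58 and 0.14, and 61% of all called genes were higher in place of 42.7%. With DESeq2 size factors 53.9% of all called genes were higher. The knockout response was higher than the control response for 21 members (52.5%) and lower for 7 (17.5%), against 20.2% and 29.9% of all genes, with medians of 0.41 and -0.12. With DESeq2 size factors these were 22 and 6 members, and 52% of all called genes were higher in place of 40.4%. The knockout response was higher than the overexpressor response for 16 (40%) and lower for 11 (27.5%), against 22.4% and 24.3%. These 3 comparisons share libraries and are not independent of each other.

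Among the called differences from the control response, Ldhb and Slc2a4 were large in both edited lines, as was Pdk4, given above. Ppp1r3c, also large in overexpressor, was at the floor in overexpressor myoblasts. The overexpressor response exceeded that of control for Ldhb (difference 4.23, SE 0.22, adjusted p = 4.65e-11), Slc2a4 (2.44, SE 0.27, adjusted p = 9.74e-07) and Pygm (1.64, SE 0.22, adjusted p = 1.12e-05), and was below it for Slc16a3 (-1.71, SE 0.25, adjusted p = 2.22e-05). For Pgam2 the excess (1.38, SE 0.50, adjusted p = 0.0399) was lost without any 1 of 8 libraries (adjusted p 0.055 to 0.149). The knockout response exceeded that of control for Ldhb (2.88, SE 0.21, adjusted p = 2.66e-09), Slc2a4 (2.39, SE 0.26, adjusted p = 6.04e-07) and Aldoc (2.02, SE 0.36, adjusted p = 0.000163). It was smaller than that of control for Pgam2 (-2.98, SE 0.39, adjusted p = 1.46e-05) and Pygm (-2.92, SE 0.19, adjusted p = 1.84e-09), both already raised in knockout myoblasts.

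Of 52 further genes of the same pathways, 37 were tested. In control differentiation 21 rose and 5 fell (all genes tested: 33.9% and 28.8%), in overexpressor 21 and 9 (29.8% and 33.0%), and in knockout 17 and 6 (29.8% and 35.6%). Pgm5, a phosphoglucomutase-related gene of striated muscle, rose in control from 1.8, 2.08 and 1 CPM to 190, 182 and 191, and knockout myoblasts already held 51.2, 68.6 and 53.2 CPM (log2 fold change over control myoblasts 5.13, SE 0.19, adjusted p = 1.29e-12). Slc2a6, a further glucose transporter family member, rose in control from 2.08, 2.35 and 1.72 CPM to 43.2, 44.3 and 39.5, and reached 88.2, 81.9 and 76.6 CPM in overexpressor and 73.4, 82 and 105 in knockout myotubes. In myotubes against control, 13 of these genes were higher and 10 lower in overexpressor (all genes: 26.2% and 30.9%), and 22 and 9 in knockout (31.0% and 37.0%). Pck2, the mitochondrial phosphoenolpyruvate carboxykinase, was at 468, 509 and 434 CPM in control myotubes and at 55.9, 54.6 and 45.6 in overexpressor and 48, 51.4 and 56.5 in knockout myotubes (-3.18, SE 0.10 in each, adjusted p = 9.92e-15 and 8.11e-15). In myoblasts 14 were higher and 8 lower in overexpressor than in control (all genes: 20.7% and 19.7%), and 17 and 5 in knockout (26.4% and 26.6%). Slc2a3, the neuronal glucose transporter, had 1.74, 1.29 and 0.98 CPM in control myoblasts and at most 0.255 CPM in the myoblasts of the edited lines.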

How the data were processed

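Per the submitters' processing notes, the tools named for the series are FastQC 0.11.7, STAR 2.7.9a, featureCounts from Subread 2.0.3 and DESeq2 1.32.0, with the mouse build mm10. Settings, the use of strand and the handling of reads with several matches were not given in the sources used here. The authors deposited raw counts per Ensembl gene for all 18 libraries, and these counts were used as deposited. Their table of variance-stabilised values was not used. GENCODE M21 supplied symbols for 55190 of 55450 gene IDs, and the rest held 0.00589% of counts.

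Genes were filtered with filterByExpr by group, scaled with TMM and tested with edgeR 4.0.16 (R 4.3.3, quasi-likelihood, robust) in 1 fit of 6 groups and 12 contrasts, and p-values were Benjamini-Hochberg adjusted over all genes tested. The copies of a gene were found with BLAST 2.17.0. The fit was first tested on simulated counts. Replicates differed by more than sampling noise, so none was counted as a repeat deposit. The alternatives were DESeq2 1.42.0 size factors, library totals, no filter and a stricter filter, the DESeq2 Wald test, a fit of only the groups compared, a replicate block and leaving out each library. Values in every library are given for members named in a fixed list and for the highest and lowest member of each contrast, and other pathway genes are named where they were among the 4 largest called changes. The members and lists were chosen with earlier results of these data known.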

Additional observations from a re-analysis of the deposited data

Results flagged for a closer look

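Several members were called in opposite directions on differentiation in 2 lines, and their responses also differed by the edgeR interaction test. Against the control response, the overexpressor response differed by 4.227 on the log2 scale for Ldhb, 2.437 for Slc2a4, 0.853 for Gapdh and -1.242 for Pfkp. The knockout response differed from that of control by 2.879 for Ldhb, 2.389 for Slc2a4, 1.198 for Gpi1 and -0.412 for Pfkp. Between the edited lines, the knockout minus overexpressor difference was 1.143 for Tpi1 and -0.782 for Gbe1. Over all 40 tested members, the response differed for 29 between overexpressor and control, for 28 between knockout and control and for 27 between knockout and overexpressor. Of all genes tested, 16.6% had a higher and 22.3% a lower response in overexpressor than in control. These shares were 20.2% and 29.9% for knockout against control, and 22.4% and 24.3% for knockout against overexpressor. The rise of Pfkp in control, on which its opposite direction rests, turned to -0.043 with library totals, and the Gapdh counts are few and its many copies can share reads. The Tpi1 call in overexpressor and both Gbe1 calls were lost without at least 1 single library.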

How the results depend on the processing

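Of 365 calls of members over the 12 comparisons, 313 held under every alternative and 52 were lost under at least 1. The losses were 20 with the DESeq2 Wald test, 19 with library totals, 19 with a fit of only the groups compared, 17 with DESeq2 size factors, 13 without a filter and 1 with a stricter filter. Leaving out 1 library also ended calls, which these numbers do not include. The Gys1 difference in response, knockout minus control, was lost without any 1 of 9 libraries, as was that of Pdk1, overexpressor minus control. The only called member whose direction turned was Pfkp in control differentiation, with -0.043 under library totals against 0.20. Members lower in overexpressor than in control myotubes numbered 12, and 7 in a fit of those groups alone. Members with a lower response in overexpressor than in control numbered 10, and 6 with DESeq2 size factors, 6 with library totals and 6 with the DESeq2 Wald test. The causes were not tested.

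The replicate letters are shared by all groups. The deviations of same-letter libraries from their group means correlated above 0.1 in 4 of 45 pairs (median -0.016, from -0.358 to 0.264), so the letters did not pair the libraries. With a replicate block, 14 calls were lost, and the counts moved little, for example to 14 from 15 members higher in overexpressor myoblasts and to 14 from 17 higher in knockout than in overexpressor myotubes.

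Shares of muscle forms depended on the length used, given here by coding length and then without length, for control, overexpressor and knockout myoblasts and then myotubes. Pfkm was 23.5%, 14.7%, 43.1%, 69.6%, 80.5% and 86.4%, and 24.2%, 15.04%, 44.3%, 69.96%, 80.9% and 86.9% without length. Pgam2 was 0.782%, 1.33%, 42.7%, 58.1%, 89.2% and 95.1%, and 0.779%, 1.325%, 42.6%, 57.99%, 89.2% and 95.03% without length. Eno3 was 61.8%, 55.4%, 69.2%, 86.7%, 89.2% and 86.4%, and 60.1%, 53.7%, 67.8%, 86.01%, 88.6% and 85.6% without length. Pygm was 1.83%, 1.25%, 57.9%, 77.6%, 87.6% and 93.4%, and 1.83%, 1.25%, 57.9%, 77.6%, 87.6% and 93.4% without length. Depth limited Pygl, Phkg1 and Ppp1r3c, which had at most 48 counts in any library.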

Other observations

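Genes known to respond to low oxygen were listed because many glycolytic genes are known to belong to that response. Of 14 such genes, all tested, 8 rose and 2 fell on differentiation in control (all genes tested: 33.9% and 28.8%), 4 rose and 9 fell in overexpressor (29.8% and 33.0%), and 3 rose and 7 fell in knockout (29.8% and 35.6%). In myotubes 5 were higher and 8 lower in overexpressor than in control (26.2% and 30.9%), and 1 was higher and 10 lower in knockout (31.0% and 37.0%), with median log2 fold changes of -0.66 and -0.80. In myoblasts 6 were higher and 4 lower in overexpressor (20.7% and 19.7%), and 2 higher and 8 lower in knockout (26.4% and 26.6%), with medians of 0.18 and -0.46. Ndrg1, a stress-responsive gene, was at 393, 413 and 386 CPM in control, 29.3, 25.4 and 23.5 in overexpressor and 39.7, 41 and 39 in knockout myotubes. Vegfa, which encodes an angiogenic growth factor, was at 376, 369 and 419 CPM in control, 97.8, 105 and 115 in overexpressor and 44.9, 38.5 and 33 in knockout myotubes.

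Of 17 regulators of glucose metabolism, 16 were tested. In knockout myoblasts 12 were higher than in control and 1 lower (all genes: 26.4% and 26.6%), and in overexpressor myoblasts 7 were higher and 5 lower (20.7% and 19.7%). In myotubes 8 were higher and 7 lower in knockout (31.0% and 37.0%), and 8 higher and 6 lower in overexpressor (26.2% and 30.9%). Hif1a, the oxygen-sensitive transcription factor subunit, was at 225, 198 and 244 CPM in control, 60.5, 77 and 123 in overexpressor and 50, 34.2 and 27.7 in knockout myotubes. Epas1, which encodes a related subunit, was below 0.4 CPM in every control and overexpressor library and at 4.63, 3.84 and 3.43 CPM in knockout myoblasts and 4.01, 2.91 and 3.62 in knockout myotubes. Ppargc1a, a coactivator of mitochondrial genes, was at 7.12, 7.47 and 6.66 CPM in knockout myoblasts against 0.449, 0.173 and 0.29 in control. Txnip, which restrains glucose uptake, was at 350, 313 and 295 CPM in control myotubes and at 125, 159 and 125 in overexpressor and 81, 80.4 and 74.3 in knockout myotubes.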
